A study of Homo sapiens with 16 samples.

Results

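The 36 genes described here are targets of the transcription factor ATF4 that serve amino acid synthesis, amino acid uptake and the charging of transfer RNA (tRNA), together with a few regulators. They were taken from the deposited gene table by gene name, and all 36 of the names were found among its 58735 genes. By role they are 4 enzymes of serine and glycine synthesis, 2 of mitochondrial one-carbon metabolism, 3 of asparagine and proline synthesis, the mitochondrial PEP carboxykinase PCK2, 2 of transsulfuration, 12 cytosolic tRNA synthetases with the tRNA exporter XPOT, 7 amino acid transporters, 3 transcription factors and the secreted factor STC2. The cells were IMR32, a human neuroblastoma line, and all libraries came from this single line. Cells were kept for 24 h in 1.25 µM indisulam, in 4 µM alectinib, in both drugs at these doses (the combination), or in DMSO, the vehicle. Each treatment had 4 libraries, 16 in all. Indisulam is a molecular glue that has the splicing factor RBM39 degraded through an E3 ubiquitin ligase, and alectinib is an inhibitor of the ALK receptor kinase. The study asked how the pair acts together on RNA splicing.

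ATF4 is the main transcription factor of the integrated stress response. When translation initiation is limited by phosphorylation of eIF2, for example during amino acid shortage, ER stress or haem shortage, translation of most mRNAs falls while that of ATF4 mRNA increases. ATF4 then pairs with C/EBP proteins on composite C/EBP-ATF response elements and raises transcription of genes that make, import and charge amino acids. MYC proteins, including the MYCN of neuroblastoma, are known to act on many of the same serine, one-carbon and transporter genes.

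The promoters of the members were searched for the known ATF4 motif. RefSeq windows from 250 bases before to 50 bases after a transcription start (GRCh38.p14) were available for 29 of the 36 genes, with none used here for PSPH, SHMT2, ALDH1L2, PYCR1, LARS, YARS and SLC7A11. The core of the C/EBP-ATF response element, TGATGNAA or TTNCATCA on the other strand, was found in 9 of 29 member windows (31.0%). It was found in 3.62% of the 34943 distinct windows of all genes, and in 2.53% of 15842 windows when 1 was taken for each protein-coding gene. The members were listed as ATF4 targets, so a higher share among them can follow from that choice and is no test of ATF4 control. The 9 sites are shown on the strand of their gene with the motif in capitals and up to 11 bases on each side, since they include both genes that fell and genes that rose in the data.
ASNS: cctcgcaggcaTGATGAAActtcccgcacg
MARS: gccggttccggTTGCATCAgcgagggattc
AARS: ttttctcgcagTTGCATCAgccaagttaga
NARS: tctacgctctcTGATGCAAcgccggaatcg
TARS: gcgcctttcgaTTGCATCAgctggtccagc
CARS: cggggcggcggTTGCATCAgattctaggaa
IARS: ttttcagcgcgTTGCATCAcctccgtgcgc
SLC3A2: tgcaggactccTTACATCAgctcc
SLC7A1: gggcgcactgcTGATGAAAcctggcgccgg

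In GRCh38.p14 these stretches lie at chr7:97872458-97872487 (ASNS, minus strand), chr12:57488053-57488082 (MARS, plus), chr16:70289675-70289704 (AARS, minus), chr18:57621804-57621833 (NARS, minus) and chr5:33440956-33440985 (TARS, plus). The others lie at chr11:3057407-3057436 (CARS, minus), chr9:92293692-92293721 (IARS, minus), chr11:62881725-62881748 (SLC3A2, plus, ending with the window) and chr13:29595663-29595692 (SLC7A1, minus). The ASNS match began 68 bases and the AARS match 187 bases before the RefSeq start, and the other 7 lay between 13 bases before (IARS) and 37 bases after it (SLC3A2). Of the 9 genes, 6 are tRNA synthetases: MARS, AARS, NARS, TARS, CARS and IARS. All 6 read TTGCATCA or its reverse complement TGATGCAA, while ASNS and SLC7A1 read TGATGAAA and SLC3A2 read TTACATCA. By response to the combination, the motif was found in 6 of 18 windows of members that fell, in 1 of 6 of members that rose and in 2 of 5 of members that were not called. The E-box CACGTG, a palindrome bound by MYC proteins, was found in 3 of 29 member windows (10.3%; ALDH18A1, IARS and SLC7A5), against 7.23% of all distinct windows and 8.88% of the protein-coding ones. Such a match is a description of the letters in the window and not a measured binding site.

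Library totals were 55.1 to 63.7 M counts (M, 1e6), except for 90.2 M in alectinib replicate 1. All 36 members passed the expression filter, with between 197 and 34985 counts in any library. By the GENCODE 29 annotation 16 of them share exonic bases with another gene, which can give or take reads, and the share was over 10% for ASNS (44.6%), MTHFD2 (33.2%), PYCR1 (29.7%), SLC1A5 (23.8%), ATF5 (23.7%), MARS (13.3%), CEBPB (11.8%) and WARS (10.6%). Members took 0.421% to 0.469% of all counts in indisulam, 0.565% to 0.599% in alectinib, 0.435% to 0.479% in the combination and 0.569% to 0.608% in DMSO. The labels do not say whether libraries of a group came from separate cultures, so p-values cover no more than the spread of these libraries, which may be technical. As a check of the line's identity, all 10 adrenergic neuroblastoma markers were detected in every group, and their summed level was 2572 to 2769 CPM in indisulam, 2173 to 2439 in alectinib, 1663 to 1927 in the combination and 2601 to 2873 in DMSO (CPM, counts scaled to a library total of 1e6 with TMM factors). The summed levels of 9 fibroblast or mesenchymal markers were 124 to 130 CPM in indisulam, 122 to 138 in alectinib, 88.1 to 100.3 in the combination and 140.3 to 153 in DMSO, and epithelial, blood and endothelial marker sums were at most 2.12 CPM, with 1 of 5 epithelial and 3 to 4 of 6 blood markers at 0 in each group. Mitochondrially encoded genes took 6.27% to 6.67% of counts in indisulam, 5.13% to 5.39% in alectinib except for 6.73% in replicate 1, 6.41% to 6.70% in the combination and 5.23% to 5.77% in DMSO. The part of these shifts in the results below was not tested, and in bulk RNA fewer cells of a type and less RNA per cell cannot be told apart.

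Most of the 36 genes fell with indisulam and with the combination, and a smaller group fell with alectinib. A gene was called at a Benjamini-Hochberg adjusted p under 0.05 over the 22433 genes tested in edgeR's quasi-likelihood fit. With indisulam, 27 of the 36 members fell and 2 rose, where 24.8% of all tested genes fell and 23% rose (47.8% called in all). The pair that rose, ASNS and SLC38A2, both lost their calls without indisulam replicate 4. With the combination, 23 fell and 6 rose, where 30.6% of all tested genes fell and 29.7% rose (60.3% in all). With alectinib, 12 fell and 2 rose, where 12.3% of all tested genes fell and 9.99% rose (22.3% in all), and under upper-quartile scaling the split was 8 lower and 5 higher. The median log2 change of the members was -0.37 with indisulam, -0.09 with alectinib and -0.39 with the combination, against medians of -0.01, 0.01 and 0.01 over all tested genes in the same comparisons. Upper-quartile scaling moved the median of all genes by 0.12 in the combination and by 0.08 in each single drug, and no member that was called turned its direction under any scaling. Called decreases of at least 2-fold were seen in 6 members with indisulam (6.81% of all tested genes), in 0 with alectinib (0.548%) and in 9 with the combination (11.2%). Called increases of at least 2-fold were seen in 0 members with indisulam (6.72% of all tested genes), in 0 with alectinib (2.8%) and in 1, SLC3A2, with the combination (11.7%). The DMSO libraries are shared by the 3 comparisons, which are therefore given side by side, and the counts by role that follow stand against the same shares of all genes.

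**Figure D1:**
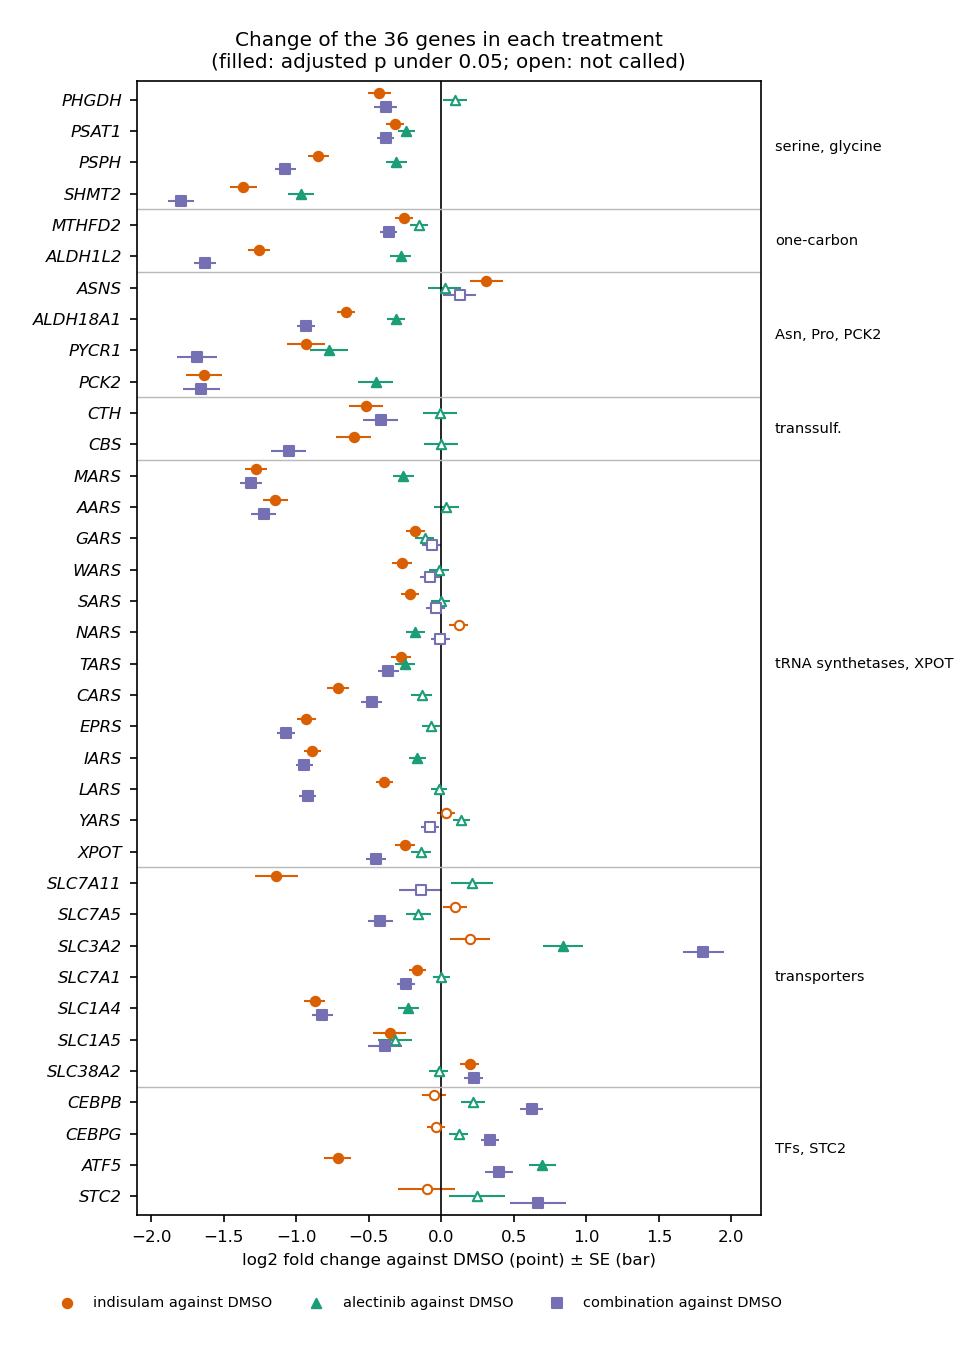
Log2 change against DMSO of each of the 36 members (rows, grouped by role) in indisulam, alectinib and the combination, with bars of 1 standard error and filled symbols for members called at an adjusted p under 0.05. Most points of indisulam and the combination lie left of 0, PCK2 is lowest with indisulam and SHMT2 with the combination, and SLC3A2 in the combination lies farthest right at 1.81.

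By their median member the libraries of a treatment lay close together. The median member, taken relative to the DMSO mean on the log2 scale, lay between -0.48 and -0.28 in the 4 indisulam libraries, between -0.12 and -0.07 in alectinib, between -0.49 and -0.31 in the combination and between -0.07 and 0.05 in DMSO. All indisulam and combination libraries were therefore below all alectinib and DMSO libraries by this measure, and the alectinib libraries did not overlap the indisulam or combination ones. Combination replicate 1 was the lowest library (-0.49) and combination replicate 2 the highest of its group (-0.31). Gene by gene, libraries of a treatment differed by more than counting noise, and those of the combination split into replicates 1 and 3 and replicates 2 and 4. Over genes with at least 20 counts in the libraries compared, the chi-square per degree of freedom was 10.98 and 9.41 within these pairs and 26.2 to 37.5 between them. It was 23.8 to 32.2 between alectinib replicate 1 and the other alectinib libraries, which were 10.9 to 22.04 apart. Pairs of indisulam libraries had 10.5 to 26.3 and pairs of DMSO libraries 10.6 to 24.8. Alectinib replicate 1 also had the highest total, 90.2 M counts, and the part of depth in this value was not tested. In PYCR1, SLC1A5 and SLC3A2 combination replicates 1 and 3 both lay under replicates 2 and 4. The same order was seen in other members of several roles, among them SHMT2, PHGDH, PCK2, CBS, AARS, MARS, SLC7A5 and ATF5. It was not seen in every member, and NARS had the opposite order. The median coefficient of variation of the members was 6.93% in indisulam, 4.71% in alectinib, 8.34% in the combination and 6.27% in DMSO.

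**Figure D2:**
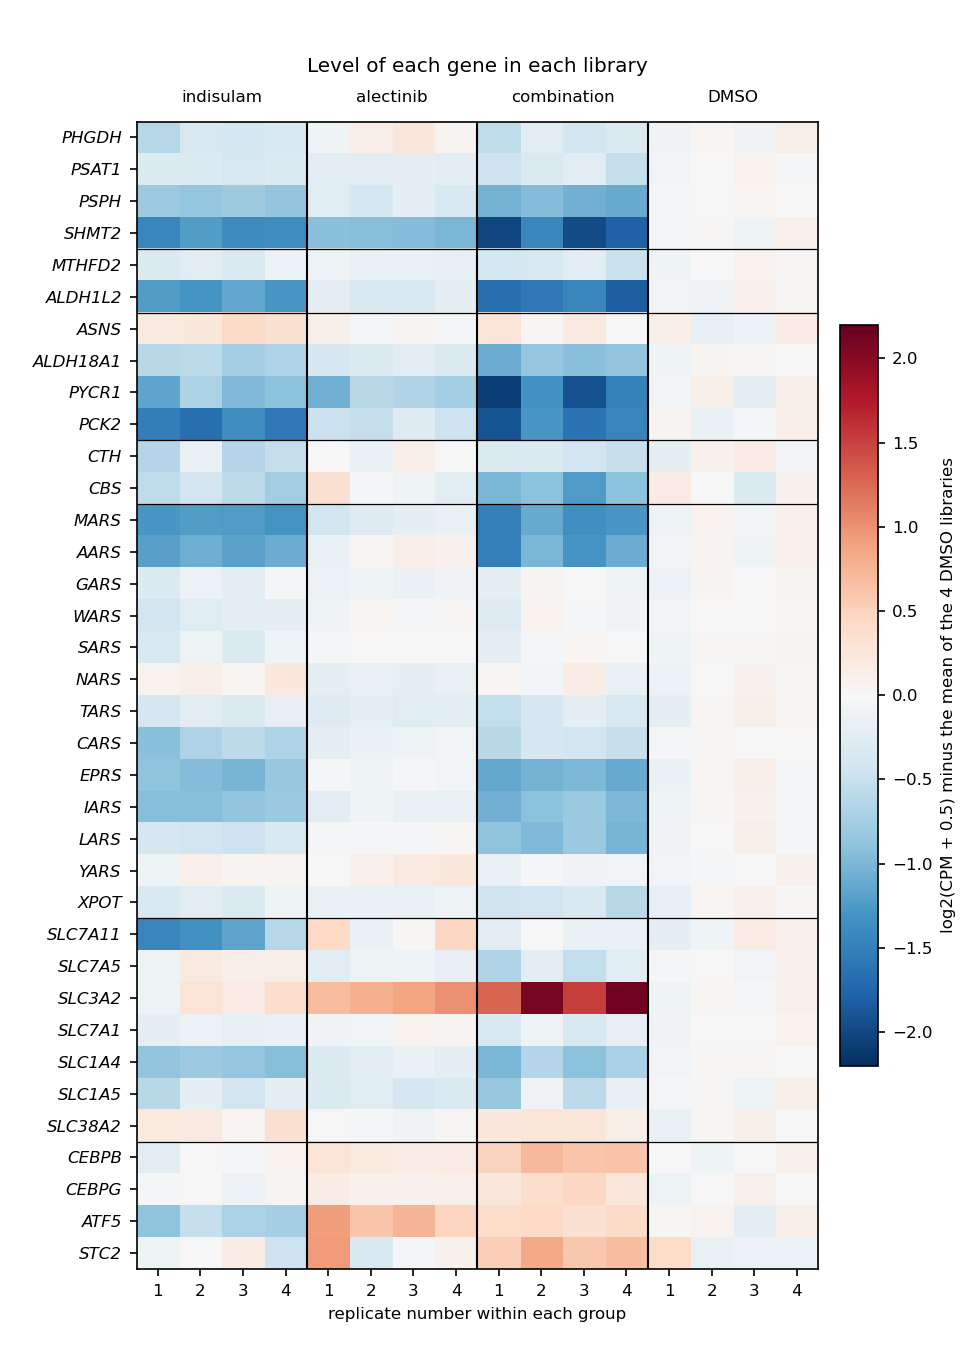
Heat map of the 36 members (rows, by role) in each of the 16 libraries (columns, by treatment), as log2(CPM + 0.5) minus the mean of the DMSO libraries, with blue for lower and red for higher and a scale from -2.2 to 2.2. The indisulam and combination columns are mostly blue, SLC3A2 is red in alectinib and the combination, and ATF5 changes colour between indisulam and the other drug treatments.

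The enzymes that make serine and glycine fell together with indisulam and with the combination. All 4 fell in both (medians -0.64 and -0.73), and 3 of 4 fell with alectinib (median -0.27). SHMT2 (GRCh38 chromosome 12, 57229327 to 57234935, plus strand), the mitochondrial serine hydroxymethyltransferase that turns serine into glycine and a one-carbon unit, had 104, 119.8, 107 and 109 CPM in the indisulam libraries, 148, 146, 145 and 141 in alectinib, 69.2, 104, 72 and 81.6 in the combination and 277, 288, 261 and 305 in DMSO. The groups did not overlap, in the order combination, indisulam, alectinib and DMSO from low to high, although combination replicate 2 lay close to the lowest indisulam library. The log2 changes were -1.36 ± 0.09 (SE) with indisulam, -0.96 ± 0.09 with alectinib and -1.79 ± 0.09 with the combination (adjusted p = 2.32e-11, 1.19e-07 and 7.83e-14). SHMT2 was the member that fell furthest with alectinib and with the combination.

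PSPH, the phosphatase of the last step of serine synthesis, had 13.2, 12.6, 13.2 and 12.5 CPM in indisulam, 19.1, 17.7, 19.9 and 18.2 in alectinib, 11, 11.7, 10.8 and 10.5 in the combination and 22.5, 23.2, 23.8 and 23.1 in DMSO. These groups did not overlap either and stood in the same order, and the log2 changes were -0.85 ± 0.07, -0.31 ± 0.07 and -1.07 ± 0.07 in indisulam, alectinib and the combination. PHGDH, the dehydrogenase that commits 3-phosphoglycerate to serine, had 194, 236, 231 and 239.6 CPM in indisulam, 284, 334, 361 and 315 in alectinib, 204, 255, 228 and 241 in the combination and 286, 309.5, 285 and 329 in DMSO. The indisulam and combination libraries lay under all DMSO libraries, and the alectinib libraries overlapped them. PHGDH fell with indisulam (-0.43 ± 0.08) and with the combination (-0.38 ± 0.08), while its value in alectinib was 0.10 ± 0.08 (adjusted p = 0.436). PSAT1, the aminotransferase between PHGDH and PSPH, fell in all 3 treatments, to 118 ± 2.31 CPM (SD, n = 4) in indisulam, 124 ± 1.61 with alectinib and 112 ± 9.76 with the combination, against 147 ± 6.57 in DMSO.

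The 2 enzymes of mitochondrial folate metabolism differed in size of response. ALDH1L2, which oxidises 10-formyltetrahydrofolate to CO2 in mitochondria with gain of NADPH, had 47.2, 44.6, 50.3 and 45.6 CPM in indisulam, 96.6, 88.2, 87.6 and 96.3 in alectinib, 34.9, 37.5, 40.9 and 31.5 in the combination and 107, 106, 121 and 113 in DMSO. The groups did not overlap, and the log2 changes were -1.25 ± 0.07 with indisulam, -0.28 ± 0.07 with alectinib and -1.63 ± 0.08 with the combination (adjusted p = 3.82e-12, 0.00738 and 1.57e-14). MTHFD2, the mitochondrial methylenetetrahydrofolate dehydrogenase, fell by less, with log2 changes of -0.26 ± 0.06 in indisulam and -0.36 ± 0.06 in the combination. In alectinib MTHFD2 was at -0.15 ± 0.06, which did not pass (adjusted p = 0.0674), and passed when DMSO replicate 1 was left out (adjusted p = 0.0392). The bases that MTHFD2 shares are chiefly those of SLC4A5 on the other strand, which held 2645 counts over all libraries against 206251 for MTHFD2.

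Proline synthesis and the mitochondrial PEP carboxykinase fell in all 3 treatments, and asparagine synthetase fell in none. PYCR1 (GRCh38 chromosome 17, 81932384 to 81942412, minus strand), which makes proline in the last step of its synthesis, had 107, 149.5, 123 and 129 CPM in indisulam, 115, 158, 152 and 142 in alectinib, 57.2, 95, 63.7 and 86 in the combination and 232, 264, 206 and 268 in DMSO. All treated libraries were below all DMSO libraries, the indisulam and alectinib libraries overlapped, and the combination libraries lay under both. The log2 changes were -0.93 ± 0.13, -0.77 ± 0.13 and -1.68 ± 0.13 in indisulam, alectinib and the combination (adjusted p = 3.27e-06, 0.000165 and 1.68e-10). ALDH18A1, the synthase of the first steps from glutamate to proline, fell to 136 ± 6.52 CPM in indisulam, 172 ± 6.20 with alectinib and 112 ± 8.36 with the combination, against 213 ± 10.2 in DMSO (SD, n = 4 each). PCK2 (GRCh38 chromosome 14, 24094053 to 24110598, plus strand), which turns mitochondrial oxaloacetate into phosphoenolpyruvate, had 4.66, 4.18, 5.24 and 4.48 CPM in indisulam, 10.2, 9.82, 11.7 and 10.4 in alectinib, 3.46, 5.61, 4.31 and 4.92 in the combination and 14.9, 12.9, 13.8 and 15.9 in DMSO. The indisulam and combination libraries overlapped each other and lay under all alectinib libraries, which lay under all DMSO libraries. PCK2 fell by 1.63, 0.45 and 1.65 on the log2 scale in indisulam, alectinib and the combination, and no other member fell as far with indisulam.

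ASNS, which makes asparagine and is a classic ATF4 target, had 7.01, 7.12, 8.28 and 7.68 CPM in indisulam, 6.63, 5.93, 6.27 and 5.82 in alectinib, 7.43, 6.14, 6.95 and 5.95 in the combination and 6.62, 5.25, 5.48 and 6.89 in DMSO. The indisulam libraries all lay above the DMSO ones, and the other groups overlapped DMSO. ASNS rose with indisulam (0.31 ± 0.11, adjusted p = 0.0278) and was at 0.02 ± 0.11 in alectinib and 0.13 ± 0.11 in the combination (adjusted p = 0.904 and 0.354). The indisulam call ended when indisulam replicate 3 or 4 or DMSO replicate 2 or 3 was left out (adjusted p = 0.0552 to 0.106). ASNS had the lowest level of all members per kilobase of exon, 1.36 CPM per kb in DMSO, and its counts are uncertain. Its shared exonic bases are those of AC079781.5 on the same strand, which held 2314 counts over all libraries against 6453 for ASNS, and 4 ASNS pseudogenes held 2217. ASNSP1, a pseudogene among them, fell with indisulam (log2 change of -1.11 ± 0.21, adjusted p = 0.000141).

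The transsulfuration pair, which carries sulfur from homocysteine to cysteine, fell with indisulam and the combination, and neither member was called in alectinib. CBS, the cystathionine synthase, had 16.8, 18.6, 16.6 and 14.6 CPM in indisulam, 31.7, 24.2, 23.5 and 21.3 in alectinib, 12.2, 13.2, 10.3 and 13.2 in the combination and 28.6, 25.4, 20.3 and 26.7 in DMSO. All combination and indisulam libraries were under all DMSO and alectinib libraries, and the combination libraries were under the indisulam ones. The log2 changes were -0.60 ± 0.12, -0.0026 ± 0.12 and -1.05 ± 0.12 in indisulam, alectinib and the combination. CBS has a near-identical copy in the annotation, CBSL, between which reads could be split, and CBSL was at -0.85 ± 0.22, -0.55 ± 0.21 and -1.37 ± 0.22 in the same order, the middle one not passing the test (adjusted p = 0.0685). CTH, the cystathionine lyase, fell with indisulam (-0.52 ± 0.12) and with the combination (-0.42 ± 0.12), while its value in alectinib was -0.01 ± 0.12. At 10.2 ± 1.30 CPM in DMSO (SD, n = 4) it was 1 of 5 members under 20 CPM.

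The tRNA synthetases fell with indisulam in most cases, and MARS, AARS, EPRS and IARS fell furthest. Each of these cytosolic enzymes joins an amino acid to the matching tRNA, and XPOT carries tRNA out of the nucleus. Of the 12 synthetases and XPOT, 11 fell with indisulam (median -0.28), 4 with alectinib (median -0.11) and 8 with the combination (median -0.45), and 0 rose in any of the 3. MARS (methionine) had 113, 117, 116 and 111 CPM in indisulam, 209, 227, 239 and 247 in alectinib, 97.3, 127, 108 and 113 in the combination and 254, 291, 263 and 297 in DMSO. The indisulam and combination libraries overlapped each other, while the alectinib libraries lay between them and DMSO. MARS fell by 1.28, 0.26 and 1.31 on the log2 scale in indisulam, alectinib and the combination (adjusted p = 2.96e-12, 0.0114 and 4.26e-13). The alectinib call ended without alectinib replicate 1 or DMSO replicate 4 (adjusted p = 0.0525 and 0.0505), and the genes that share bases with MARS include ARHGAP9 and DDIT3 on the other strand.

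AARS (alanine) had 52.4, 57.5, 53.3 and 56.7 CPM in indisulam, 109.8, 125, 134 and 129 in alectinib, 42.4, 60.4, 48.8 and 56.3 in the combination and 116, 126, 113 and 131 in DMSO. Indisulam and combination libraries again lay under all others, and alectinib overlapped DMSO. Its log2 changes were -1.14 ± 0.09 with indisulam, 0.03 ± 0.09 with alectinib (adjusted p = 0.822) and -1.22 ± 0.09 with the combination. EPRS, which charges both glutamate and proline, had 169.9, 163, 154 and 178 CPM in indisulam, 307, 294, 305 and 301 in alectinib, 144, 154, 159 and 147 in the combination and 286, 327, 349 and 306 in DMSO. Its indisulam and combination libraries were likewise under all others. It fell by 0.93 and 1.07 on the log2 scale with indisulam and the combination, and its alectinib value was -0.07 ± 0.06. IARS (isoleucine) fell to 215 ± 8.10 CPM in indisulam, 356 ± 13.8 with alectinib and 207 ± 14.7 with the combination, against 399 ± 23.5 in DMSO (SD, n = 4 each). The IARS call in alectinib had an adjusted p = 0.0492 and ended in 11 of the 16 fits that left out a library, with adjusted p up to 0.2002.

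LARS and CARS also differed between the combination and indisulam alone. LARS (GRCh38 chromosome 5, 146113038 to 146182660, minus strand, leucine) had 199, 194, 188 and 205 CPM in indisulam, 253, 253, 253 and 263 in alectinib, 139, 132, 147 and 127 in the combination and 243, 257, 281 and 252 in DMSO. The combination libraries lay under all indisulam libraries, and those under all alectinib and DMSO libraries. LARS fell by 0.39 with indisulam and by 0.92 with the combination on the log2 scale and was at -0.02 ± 0.06 in alectinib. CARS (cysteine) had 32.6, 38.7, 41.7 and 38.8 CPM in indisulam, 53.2, 56.1, 57.7 and 59.6 in alectinib, 40.7, 47.7, 46.1 and 43.8 in the combination and 60.1, 63.6, 62.4 and 62.7 in DMSO. Its indisulam libraries were under the combination ones, except that indisulam replicate 3 was above combination replicate 1, and both groups were under alectinib and DMSO. The log2 changes were -0.71 ± 0.07 in indisulam, -0.13 ± 0.07 in alectinib (not passing, adjusted p = 0.2) and -0.48 ± 0.07 in the combination.

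The remaining synthetases changed by at most 0.37 on the log2 scale against DMSO. TARS (threonine) fell throughout, at -0.28 ± 0.07 with indisulam, -0.25 ± 0.07 with alectinib and -0.37 ± 0.07 with the combination, and its alectinib call ended without DMSO replicate 3 (adjusted p = 0.07). WARS (tryptophan), SARS (serine) and GARS (glycine) fell with indisulam (-0.27 ± 0.07, -0.22 ± 0.06 and -0.18 ± 0.07) and were at -0.08 ± 0.07, -0.04 ± 0.06 and -0.06 ± 0.07 in the combination, none of which passed (adjusted p = 0.331, 0.624 and 0.406). The GARS call ended in 5 of the fits that left out a library (indisulam replicates 1 and 3 and DMSO replicates 2, 3 and 4, adjusted p = 0.0604 to 0.107). Under upper-quartile scaling the indisulam calls of GARS and SARS both ended (adjusted p = 0.172 and 0.0626). NARS (asparagine) fell with alectinib (-0.18 ± 0.07, adjusted p = 0.0496), a call that ended in 10 of the 16 fits that left out a library, and was at 0.12 ± 0.07 and -0.01 ± 0.07 in indisulam and the combination. YARS (tyrosine) was not called against DMSO in any treatment, with log2 values of 0.03 ± 0.06, 0.14 ± 0.06 and -0.08 ± 0.06 in indisulam, alectinib and the combination. XPOT fell with indisulam (-0.25 ± 0.07) and with the combination (-0.45 ± 0.07), while its value in alectinib was -0.14 ± 0.07, which did not pass (adjusted p = 0.148) and passed when DMSO replicate 1 was left out (adjusted p = 0.0353).

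**Figure D3:**
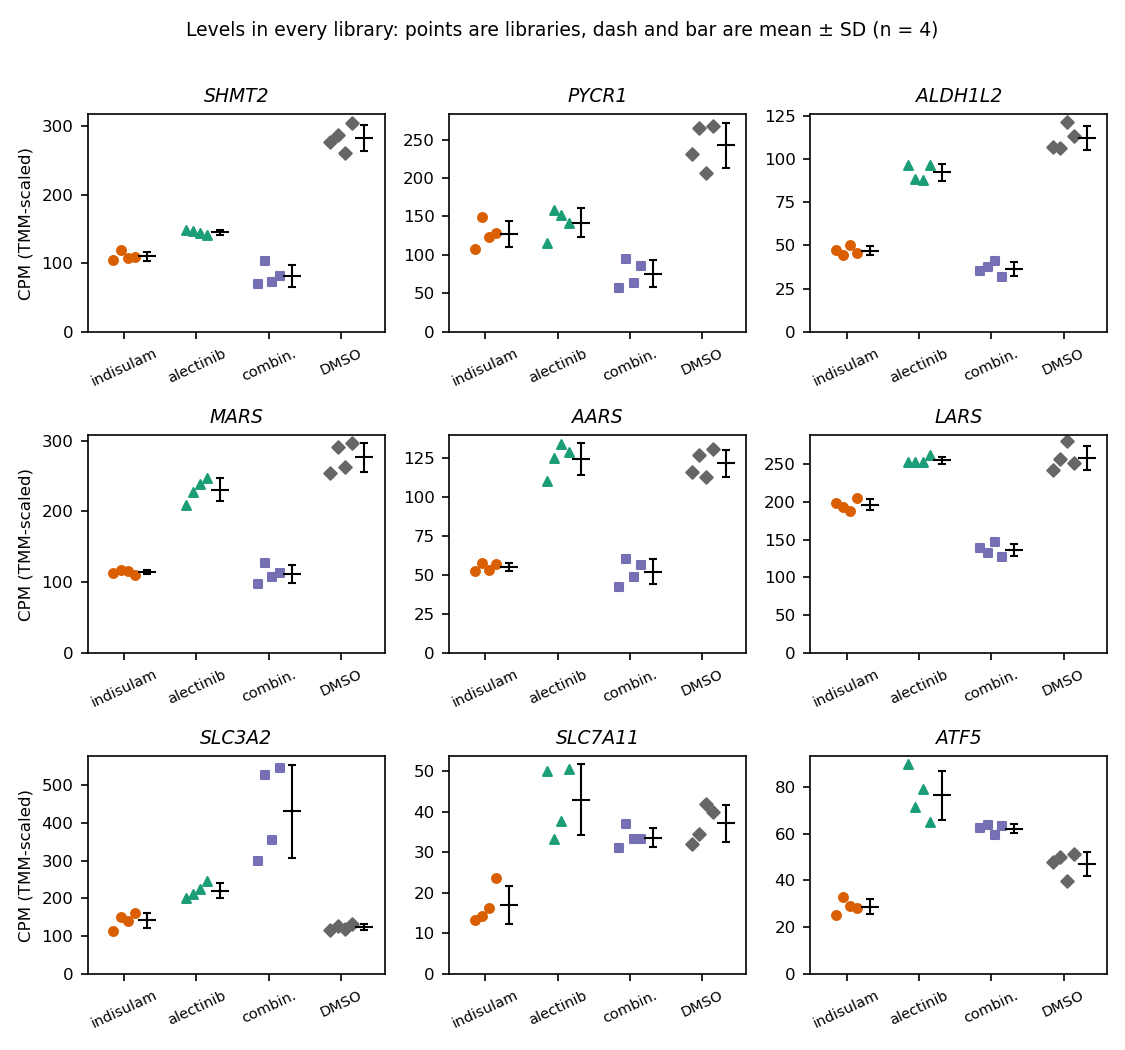
Levels in CPM of selected members in each library (points), with the group mean and SD, for indisulam, alectinib, the combination and DMSO from left to right. The combination libraries of SLC3A2 (298 to 544 CPM) lie above all others of that gene, and the indisulam libraries of SLC7A11 (13.2 to 23.7 CPM) lie below all others of that gene.

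Of the 7 amino acid transporters, 4 fell and 1 rose with indisulam (24.8% and 23% of all tested genes), 1 fell and 1 rose with alectinib (12.3% and 9.99%), and 4 fell and 2 rose with the combination (30.6% and 29.7%). The counts with alectinib and the 2 that rose with the combination are near the shares over all genes. SLC3A2 (GRCh38 chromosome 11, 62856102 to 62888875, plus strand), the heavy chain that brings SLC7A5 and SLC7A11 to the plasma membrane, had 114, 151, 140.2 and 161 CPM in indisulam, 200.04, 211, 224 and 247 in alectinib, 298, 527, 354 and 544 in the combination and 115, 126, 119 and 132 in DMSO. The alectinib libraries were above all indisulam and DMSO libraries, and the combination libraries were above all others but spread widely, with replicates 2 and 4 well above replicates 1 and 3. SLC3A2 rose by 0.84 ± 0.14 on the log2 scale with alectinib and by 1.81 ± 0.14 with the combination (adjusted p = 0.000105 and 9.63e-11), and its mean level in the combination was 431 ± 123 CPM (SD, n = 4), against 123 ± 7.64 CPM in DMSO. It was at 0.20 ± 0.14 in indisulam (adjusted p = 0.244). It was the single member that rose at least 2-fold against DMSO.

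Against DMSO, neither of the light chains was called higher in a treatment. SLC7A11 (GRCh38 chromosome 4, 138164097 to 138242349, minus strand), which imports cystine in exchange for glutamate, had 13.2, 14.3, 16.3 and 23.7 CPM in indisulam, 50.1, 33.3, 37.8 and 50.6 in alectinib, 31.1, 36.9, 33.4 and 33.2 in the combination and 32.1, 34.6, 41.8 and 40.00 in DMSO. The indisulam libraries were under all others, and the other 3 groups overlapped. It fell with indisulam (-1.14 ± 0.15, adjusted p = 1.06e-06) and was at 0.21 ± 0.14 in alectinib and -0.14 ± 0.15 in the combination (adjusted p = 0.325 and 0.413). SLC7A5, which imports leucine and other large neutral amino acids, had 206, 254, 243 and 246 CPM in indisulam, 188, 206, 207 and 195 in alectinib, 138, 189.8, 152 and 184 in the combination and 215, 223, 213 and 238 in DMSO. The combination libraries were under all indisulam and DMSO libraries and overlapped alectinib replicate 1. Against DMSO it fell with the combination (-0.42 ± 0.08) and was at 0.10 ± 0.08 in indisulam and -0.16 ± 0.08 in alectinib.

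SLC1A4, a carrier of alanine, serine and cysteine, had 35.5, 37.1, 35.8 and 33.6 CPM in indisulam, 52.4, 55.4, 58.7 and 55.9 in alectinib, 32.1, 41.5, 34.4 and 39.4 in the combination and 62.1, 65.9, 66.5 and 65.5 in DMSO. Indisulam and combination libraries overlapped and lay under all alectinib libraries, which lay under all DMSO libraries. It fell by 0.87 and 0.82 on the log2 scale with indisulam and the combination, and by 0.23 with alectinib, a call that ended in 6 of the fits that left out a library (alectinib replicates 1, 2 and 4 and DMSO replicates 2, 3 and 4, adjusted p = 0.0525 to 0.0904). SLC1A5, the glutamine carrier, fell with indisulam (-0.36 ± 0.12) and the combination (-0.39 ± 0.12). Its alectinib value was -0.32 ± 0.12 (adjusted p = 0.0502), which passed in 11 of 23 other settings (adjusted p = 0.000405 to 0.0499), 6 of them without an indisulam or combination library. It lost the indisulam call without indisulam replicate 1 or DMSO replicate 4 (adjusted p = 0.0633 and 0.0508). The cationic amino acid carrier SLC7A1 fell with indisulam (-0.16 ± 0.06) and with the combination (-0.24 ± 0.06), while its value in alectinib was 0.00013 ± 0.06. Its indisulam call ended without indisulam replicate 1 or 3 or DMSO replicate 2, 3 or 4 (adjusted p = 0.0552 to 0.1005). That call also ended with RLE size factors, upper-quartile scaling and no filter (adjusted p = 0.051, 0.217 and 0.0757). SLC38A2, a sodium-coupled importer of small neutral amino acids, rose with indisulam (0.20 ± 0.07) and with the combination (0.22 ± 0.07), while its value in alectinib was -0.02 ± 0.07. The indisulam call ended without indisulam replicate 4 or DMSO replicate 1 (adjusted p = 0.078 to 0.0793).

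The transcription factors and STC2 went against the enzymes in the combination, where 4 of 4 rose (median 0.51). Of all tested genes 29.7% rose with the combination. With indisulam 1 of the 4 fell and 0 rose (24.8% and 23% of all tested genes). With alectinib 1 rose and 0 fell (9.99% and 12.3%). The count that fell with indisulam is near the share over all genes. ATF5 (GRCh38 chromosome 19, 49928702 to 49933935, plus strand), a relative of ATF4 that is itself translated under stress, had 25.1, 32.7, 28.8 and 28.3 CPM in indisulam, 89.7, 71.5, 79 and 65 in alectinib, 62.4, 63.5, 59.4 and 63.2 in the combination and 47.8, 49.8, 39.7 and 51.3 in DMSO. The indisulam libraries were under all DMSO libraries, and the alectinib and combination libraries were above them. Its log2 changes were -0.71 ± 0.10 with indisulam, 0.70 ± 0.09 with alectinib and 0.40 ± 0.09 with the combination (adjusted p = 1.36e-06, 1.18e-05 and 0.000794). It was the single member called in opposite directions by the single drugs. Its shared bases are mostly those of NUP62 on the other strand, which held 183155 counts against 53690 for ATF5 and was at 0.14 ± 0.06, -0.16 ± 0.06 and -0.04 ± 0.06 in indisulam, alectinib and the combination, none of them called.

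CEBPB, a bZIP partner of ATF4, had 14.7, 17.4, 17.1 and 18.6 CPM in indisulam, 21.8, 20.3, 19.5 and 19.9 in alectinib, 24.6, 29.1, 26.9 and 27.3 in the combination and 17.4, 16.4, 17.5 and 18.8 in DMSO. The combination libraries were above all others. CEBPB rose with the combination (0.62 ± 0.08, adjusted p = 5.05e-07) and was at -0.05 ± 0.08 in indisulam and 0.22 ± 0.08 in alectinib (adjusted p = 0.657 and 0.0585), the last passing in 5 of 23 other settings (adjusted p = 0.00838 to 0.0477), among them the fit without indisulam replicate 1. CEBPG, a short C/EBP protein that also pairs with ATF4, rose with the combination to 152 ± 10.8 CPM, against 120.3 ± 7.51 in DMSO (SD, n = 4 each), and was at 118 ± 6.28 in indisulam and 131 ± 3.28 in alectinib. STC2, a secreted glycoprotein induced by ER stress, had 13.9, 14.9, 16.6 and 10.6 CPM in indisulam, 28.8, 11.7, 14.6 and 15.8 in alectinib, 21.8, 26.8, 22.7 and 24 in the combination and 19.8, 13.2, 13.5 and 13.5 in DMSO. The combination libraries were above all DMSO and indisulam libraries, and alectinib replicate 1 was the highest of all. STC2 rose with the combination (0.67 ± 0.19, adjusted p = 0.00486) and was at -0.10 ± 0.20 in indisulam and 0.25 ± 0.19 in alectinib.

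ATF4 mRNA rose a little with the combination and was not called with either single drug. It had 388, 451, 436 and 445 CPM in indisulam, 425, 478, 447 and 426 in alectinib, 459, 594, 543 and 572 in the combination and 412, 469.5, 451 and 478 in DMSO. The groups overlapped, except that 3 of the 4 combination libraries were above every library of the other groups. ATF4 rose with the combination (0.26 ± 0.07, adjusted p = 0.00359) and was at -0.07 ± 0.07 in indisulam and -0.03 ± 0.07 in alectinib. ATF4 is controlled mainly at translation, and its protein was not measured here. DDIT3, which encodes the stress factor CHOP and is another ATF4 target, fell with indisulam (-0.59 ± 0.13) and was at -0.25 ± 0.12 in alectinib and 0.25 ± 0.12 in the combination, neither of which passed (adjusted p = 0.155 and 0.0889).

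With alectinib added to indisulam, as many members rose as fell, and both counts are near the shares over all tested genes. In the combination against indisulam alone, 9 members rose and 9 fell, where 18.9% of all tested genes rose and 20.1% fell (39% in all), and the median member was at -0.06. Those that rose were SLC3A2, ATF5, SLC7A11, STC2, CEBPB, CEBPG, CARS, WARS and SARS. SLC3A2 was at 1.61 ± 0.14, ATF5 at 1.11 ± 0.10 and SLC7A11 at 0.99 ± 0.15 (adjusted p = 4.94e-09, 4.21e-09 and 1.11e-05). Those that fell were PYCR1 (-0.75 ± 0.13), LARS (-0.53 ± 0.06), SLC7A5 (-0.52 ± 0.08), CBS (-0.45 ± 0.12), SHMT2 (-0.43 ± 0.09), ALDH1L2 (-0.37 ± 0.07), ALDH18A1, PSPH and XPOT. The calls of WARS, SARS, CARS and XPOT each ended in 2 to 5 of the fits that left out an indisulam or combination library, with adjusted p up to 0.1436. For MARS, AARS, PCK2 and IARS, the log2 differences between combination and indisulam were -0.04 ± 0.07, -0.08 ± 0.09, -0.02 ± 0.13 and -0.06 ± 0.06, and none of them passed.

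Adding indisulam to alectinib lowered most members. In the combination against alectinib alone, 24 fell and 5 rose, where 29% of all tested genes fell and 26.5% rose (55.5% in all), and the median member was at -0.30. The largest decreases were those of ALDH1L2 (-1.35 ± 0.07), AARS (-1.26 ± 0.09), PCK2 (-1.20 ± 0.12), CBS (-1.05 ± 0.12) and MARS (-1.05 ± 0.07). SLC3A2 (0.97 ± 0.14), CEBPB (0.41 ± 0.08), SLC38A2 (0.24 ± 0.07), CEBPG (0.22 ± 0.06) and NARS (0.17 ± 0.07) rose. The call of PSAT1 (-0.14 ± 0.06, adjusted p = 0.0479) ended in 19 of 23 other settings, 13 of them fits that left out a library (adjusted p up to 0.208). That of SLC7A11 (-0.35 ± 0.14, adjusted p = 0.0423) ended in 9, among them those without alectinib replicate 1 or 4 or combination replicate 1, 3 or 4 (adjusted p up to 0.179), and that of SLC7A5 ended without combination replicate 1 (adjusted p = 0.0553). The NARS call ended without alectinib replicate 1 or 3 or combination replicate 3 (adjusted p = 0.0586 to 0.145), and that of ATF5, which fell (-0.30 ± 0.09), ended without alectinib replicate 1 (adjusted p = 0.0579). STC2 was at 0.42 ± 0.19 (adjusted p = 0.0679) and passed in 5 of 23 other settings, among them the fit without alectinib replicate 1 (adjusted p = 0.000142 to 0.0485). Between the single drugs, 23 members were lower and 4 higher in indisulam than in alectinib, where 25.6% of all tested genes were lower and 23.7% higher (49.3% in all). ATF5 (-1.41 ± 0.10), SLC7A11 (-1.35 ± 0.15), PCK2 (-1.18 ± 0.12), AARS (-1.18 ± 0.09) and MARS (-1.01 ± 0.07) had the largest differences, and NARS (0.30 ± 0.07), ASNS (0.29 ± 0.11), SLC7A5 (0.25 ± 0.08) and SLC38A2 (0.21 ± 0.07) were higher in indisulam. The ASNS call ended in 5 of the fits that left out an indisulam or alectinib library (adjusted p = 0.0626 to 0.116), and the SLC7A5 call without indisulam replicate 2 (adjusted p = 0.0535). The CEBPG decrease in the same comparison ended in 13 of 23 other settings, 10 of them fits that left out a library (adjusted p up to 0.165), that of SLC7A1 in 7, among them those without indisulam replicate 1 or 3 or alectinib replicate 3 or 4 (adjusted p up to 0.0905), and that of CEBPB without indisulam replicate 1 (adjusted p = 0.0516).

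For 28 of the 36 members no interaction between the drugs was called, which does not show that their effects added up exactly. The interaction is the alectinib effect in cells with indisulam minus the alectinib effect in cells without it, on the log2 scale, so 0 means an additive change. It was called for 8 of the 36 members, 6 above 0 and 2 below, where 6.85% of all tested genes were above and 6.63% below (13.5% in all). Above 0 were SLC7A11 (0.78 ± 0.21, adjusted p = 0.0135), SLC3A2 (0.77 ± 0.19, 0.00995), SHMT2 (0.53 ± 0.13, 0.00664), CEBPB (0.46 ± 0.12, 0.0104), ATF5 (0.42 ± 0.13, 0.0383) and CARS (0.37 ± 0.10, 0.0198). Below 0 were LARS (-0.51 ± 0.08, adjusted p = 0.000262) and SLC7A5 (-0.36 ± 0.12, 0.0478). SLC3A2 and CEBPB thus rose by more than the sum, LARS fell by more, and SHMT2 fell by less than the sum of -2.33 while still falling furthest in the combination. SLC7A11 fell with indisulam, while its combination libraries overlapped those of DMSO. Without combination replicate 1 the count of called interactions was 14, with 13 above 0. The interactions of ATF5 and SLC7A5 each ended in 11 of the 16 fits that left out a library (adjusted p up to 0.093 and 0.0953), and that of CARS ended without indisulam replicate 1 (adjusted p = 0.0514). ATF4 mRNA had an interaction of 0.36 ± 0.10 (adjusted p = 0.0207) and DDIT3 one of 1.10 ± 0.18 (adjusted p = 0.000297).

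**Figure D4:**
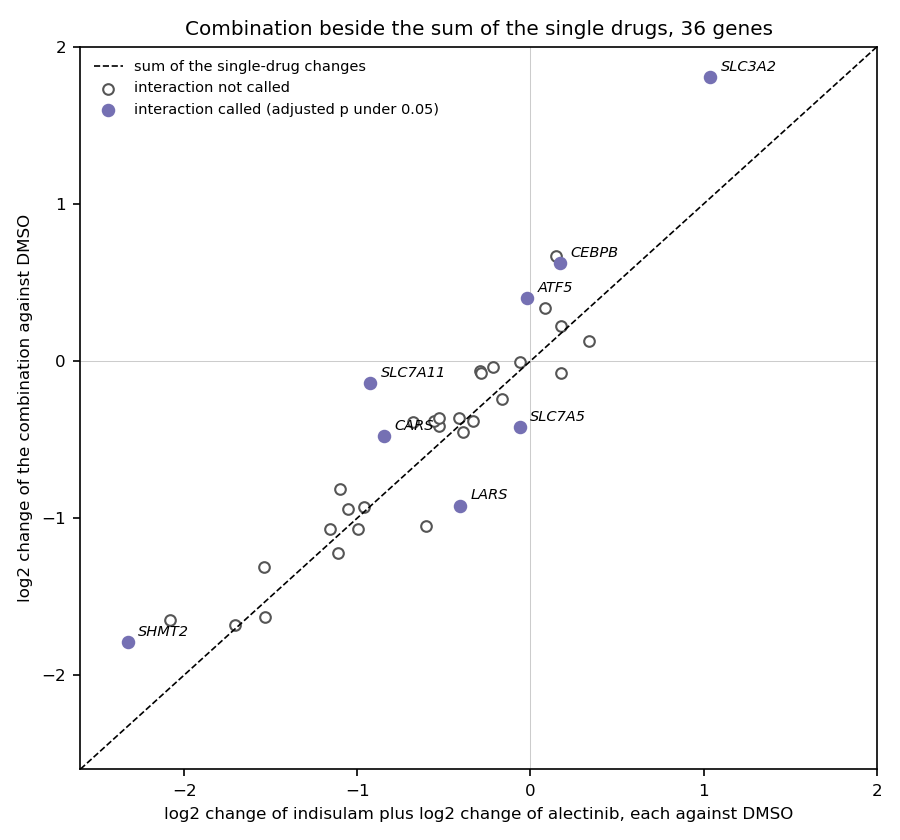
Observed log2 change of each member in the combination against DMSO (vertical axis) over the sum of its changes with the single drugs (horizontal axis), with a line where both are equal. Members with a called interaction are marked: SLC3A2, CEBPB, ATF5, SLC7A11, CARS and SHMT2 lie above the line, and LARS and SLC7A5 lie below it.

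Other genes of the same pathways, which are not members, stand against the same shares, 47.8% of all tested genes called with indisulam, 22.3% with alectinib and 60.3% with the combination. Of 24 further enzymes of amino acid and one-carbon metabolism, 23 were tested, and 11 fell and 5 rose with indisulam, 13 fell and 0 rose with alectinib, and 14 fell and 3 rose with the combination. Among them SHMT1 (-1.83 ± 0.10 with the combination), the cytosolic counterpart of SHMT2, MTHFD1 (-1.64 ± 0.07), the cytosolic folate enzyme, and GPT2 (-1.14 ± 0.08), the mitochondrial alanine aminotransferase, had the smallest p with the combination. Of 16 further amino acid transporters, 14 were tested, and 10 fell and 3 rose with indisulam, 5 fell and 0 rose with alectinib, and 11 fell and 2 rose with the combination, with SLC38A5 at -1.996 ± 0.12, SLC7A2 at -1.57 ± 0.09 and SLC38A1 at -0.98 ± 0.06. The 12 other cytosolic synthetases and cofactors had 6 lower and 3 higher with indisulam, 3 and 0 with alectinib and 6 and 2 with the combination. For these synthetases and cofactors, the shares called in either direction with alectinib (25%) and with the combination (66.7%) are near those over all genes. By direction, 24.8% of all tested genes fell and 23% rose with indisulam, 12.3% and 9.99% with alectinib, and 30.6% and 29.7% with the combination. Among these synthetases and cofactors VARS (valine) was at -1.54 ± 0.09, QARS (glutamine) at -1.26 ± 0.07 and XPO5, a nuclear export receptor, at -1.05 ± 0.05. QARS had an interaction of 1.00 ± 0.10 (adjusted p = 1.47e-06).

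The 17 mitochondrial synthetases, which charge tRNA inside mitochondria, were split. With indisulam 8 were lower and 5 higher (24.8% and 23% of all tested genes). The counts were 5 and 1 with alectinib (12.3% and 9.99%) and 7 and 7 with the combination (30.6% and 29.7%). Those higher with a single drug are near the shares over all genes. TARS2 (-1.51 ± 0.08) and IARS2 (-1.22 ± 0.06) were among those that fell with the combination. Of 17 regulators of the integrated stress response, 11 rose and 4 fell with the combination, 7 rose and 3 fell with alectinib, and 4 rose and 8 fell with indisulam. Against the same shares, the counts that rose with indisulam and fell with the combination are near or under those of all genes. NUPR1, a stress-induced chromatin protein, had 0.145, 0.469, 0.413 and 0.483 CPM in indisulam, 0.234, 0.381, 0.342 and 0.217 in alectinib, 10.4, 15.8, 11.6 and 16.3 in the combination and 0, 0.0719, 0 and 0.139 in DMSO. The combination libraries stood far above all others, and the change was called in all 3 treatments (adjusted p = 0.000184, 0.00317 and 7.43e-14 in indisulam, alectinib and the combination). EIF2AK1, the haem-regulated eIF2 kinase, fell in all 3 treatments (-0.54 ± 0.06, -0.25 ± 0.06 and -1.096 ± 0.06), as did VLDLR (-1.15 ± 0.07, -0.38 ± 0.07 and -1.70 ± 0.07), a lipoprotein receptor known as an ATF4 target.

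The members differed widely in level. Per kilobase of exon, PYCR1 (84.0 CPM per kb), SARS (81.7) and PSAT1 (67.0) had the highest levels in DMSO, and PCK2 (3.44), STC2 (2.45) and ASNS (1.36) the lowest. Over the 36 genes, the log2 change with the combination had a Spearman rho of -0.35 with the number of merged exons, -0.28 with the length of the gene and -0.11 with its exonic length. With indisulam the same coefficients were -0.19, -0.21 and -0.11, and with alectinib -0.04, 0.01 and 0.18. These are descriptions over 36 genes that share libraries and are not independent.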

How the data were processed

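Per the labels, polyadenylated RNA of IMR32 cells was sequenced in 16 libraries, 4 for each treatment. The authors deposited raw read counts per gene in a single table. The submitters' processing notes name HISAT2 2.2.1 and featureCounts 2.0.1, beside FastQC 0.11.9 and Trimmomatic 0.39, and build GRCh38. How strand and multiply mapping reads were treated is not given in the sources used here. Gene starts, ends and strands equalled GENCODE 29 for all 58735 genes.

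Counts were filtered with filterByExpr by group (22433 genes left), TMM-scaled and tested by quasi-likelihood in edgeR 4.0.16 (R 4.3.3). All 16 libraries entered a single fit of treatment means, which left 12 residual degrees of freedom. Tests were two-sided, p-values were adjusted over all 22433 genes by the Benjamini-Hochberg method, and the threshold was 0.05. Fold changes use a prior count of 0.125, and SE is the standard error of the log2 change. Levels of single genes are TMM-scaled CPM, given per library or as mean ± SD (n = 4). Marker sums are CPM without TMM factors. The procedure was first run on simulated counts with an equal dispersion for all genes and no split between replicates. That run cannot vouch for the calls in these data. Replicate libraries differed by more than counting noise.

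All 36 members were named. Of other genes, ATF4 and DDIT3 were named, as were the 3 called genes with the smallest p in the combination against DMSO from each list of related genes, and genes that share sequence with a member; 1 gene that this rule takes is not reported here. The members, lists and rules were chosen with earlier results of these data known. Alternatives were DESeq2 1.42.0, RLE and upper-quartile scaling, no filter, a filter of 1 CPM in 4 libraries, a replicate block, a fit of only the groups compared, and leaving out each library in turn. Promoter windows and sequences are from RefSeq (GRCh38.p14).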

Additional observations from a re-analysis of the deposited data

Results flagged for a closer look

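Single libraries stood apart from the other 3 of their group in 3 of 144 groups of 4 examined, where chance flags about 1 in 20. PSAT1 was at 114 CPM in indisulam replicate 3, below 118 to 119 CPM in the other indisulam libraries. LARS was at 263 CPM in alectinib replicate 4, above 253 CPM in the other alectinib libraries. STC2 was at 19.8 CPM in DMSO replicate 1, above 13.2 to 13.5 CPM in the other DMSO libraries, and still under all combination libraries of that gene.

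The effect of alectinib differed between cells with indisulam and cells without it, by edgeR's test of the interaction, for 8 members. On the log2 scale the effect with indisulam minus that without it was 0.78 for SLC7A11, 0.77 for SLC3A2, 0.53 for SHMT2, 0.46 for CEBPB, 0.42 for ATF5 and 0.37 for CARS. It was -0.51 for LARS and -0.36 for SLC7A5.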

How the results depend on the processing

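No member's called change turned its direction under any of the other settings, 23 for each comparison of groups and 22 for the interaction. Of the calls reported, those that held under all settings were 23 of 29 for indisulam against DMSO, 9 of 14 for alectinib, 28 of 29 for the combination, 13 of 18 for the combination against indisulam, 24 of 29 for it against alectinib, 22 of 27 between the single drugs and 5 of 8 for the interaction. Members higher in alectinib were 2, and 5 under upper-quartile scaling and 4 with a filter of 1 CPM in 4 libraries. Members with an interaction below 0 were 2, and 1 with RLE size factors. Leaving out 1 library at a time gave 0 to 2 members higher with indisulam, and 4 to 13 interactions above 0, 1 to 3 below 0 and 6 to 14 in all, the 14 without combination replicate 1. The call lost for the combination was that of SLC7A1 under upper-quartile scaling (adjusted p = 0.0529). The cause of these differences was not tested.

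With the replicate number as a block, 29 members were called with indisulam, 15 with alectinib and 29 with the combination, 18 and 30 for the combination against indisulam and alectinib, 27 between the single drugs and 10 for the interaction, 4 of them below 0, and SLC1A5 passed with alectinib (adjusted p = 0.00989). Libraries with the same number did not all deviate together (correlations between -0.28 and 0.45), and not every library correlated best with its own number. The correlations were positive in every pair of groups for replicates 1 and 2, and of both signs for replicates 3 and 4. Whether the numbers mark a partial pairing or batch was not tested. Each group has 4 libraries of 1 cell line at 1 dose and time, and the counts of ASNS, CBS and the members that overlap other genes are uncertain.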
